A study of Mus musculus with 3 samples.

Results

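Gfra2, the receptor of neurturin, was followed through the stromal cells of mouse lymph nodes, together with 5 genes of the same signalling system: the related receptors Gfra1 and Gfra3, the ligands Nrtn and Gdnf, and the shared signalling receptor Ret. The 6 genes were taken by their symbols from the 51912 genes of the count matrices. The set was chosen by the measured UMI levels of Gfra2 over stromal types in these libraries, so the levels of the 6 genes are given as a description, with no test. Lymph node cells were sequenced as 3 single-cell libraries from C57BL/6 mice of the genotype CXCL13-TdTomato+, a Cxcl13-Cre line with the red reporter TdTomato, and live Podoplanin+ CD31- CD45- TdTomato+ cells were sorted. The 2-IC group (2 libraries) came from mice given antigen-immune complexes (ICs) 7 days and 24 h before analysis, and the 1-IC group (1 library) from mice given ICs at 24 h alone. All mice of both groups carried the reporter and received at least 1 dose, so an uninjected control was not analysed here. Lymph nodes of several mice were pooled before sorting, each library counts as 1 replicate, and cells without the reporter lie outside the sort.

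Receptors of the GDNF family are anchored to the cell surface by a lipid tail and have no signalling part of their own. Each prefers 1 ligand (GFRα1 binds GDNF, GFRα2 neurturin, GFRα3 artemin), and the ligand-bound pair brings together the receptor tyrosine kinase RET, which signals through adaptor proteins to the ERK and AKT pathways. The system is best known from the enteric, sensory and autonomic nervous systems and from kidney development. In lymph nodes, follicular dendritic cells (FDCs) hold immune complexes on complement receptors such as Cr2, marginal reticular cells below the capsule express Madcam1 and the cytokine Tnfsf11, and other reticular cells line the follicles, the T cell zone and the medulla.

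Unique molecular identifiers (UMIs, counted as 1 per captured transcript) were available for 3790 barcodes in 2-IC replicate 1, 1029 in 2-IC replicate 2 and 667 in 1-IC replicate 1. After barcodes with under 200 genes, over 10% mitochondrial UMIs or any UMI of 13 contaminant genes were left out, 1526, 391 and 326 cells were retained, with a median of 4700.5, 14732 and 5979 UMIs. Retained cells were split by raw UMIs into a Cr2 gate (1 or more Cr2 UMIs, 230 cells) and, among cells without Cr2, into a Madcam1 gate (44 cells), a Tnfsf11 gate (319), an Fmod gate (151) and an Inmt gate (685), each of 2 or more UMIs and taken in this order. A further 814 cells met no gate. The 2-IC libraries shared 76 barcodes, with the shallower copy at a median of 1.90% of the UMIs of the deeper one. The paper describes 3 independent experiments, but the sources do not tie these or the pooled mice to single libraries. The 2-IC libraries may therefore not be independent samples, and each SD and p over 3 libraries rests on treating them as such. Without all barcodes found in more than 1 library, the log2 ratio of Gfra2 between the Cr2 gate and the other gates was 1.83 in place of 1.79.

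Markers of the gates were checked first. Levels are given as CPM, the gene's UMIs in a gate of 1 library scaled to a common total over all genes. The Cr2 gate held the FDC markers Fcer2a at 198 ± 25.3 CPM (SD, n = 3 libraries), Fcgr2b at 218 ± 39.6 and Cd200 at 318 ± 131, whereas Cd200 was at 53.8 ± 44.3 CPM in the Madcam1 gate. The Madcam1 gate had Tnfsf11 at 553 ± 133 CPM, as marginal reticular cells do. The sums over whole lists did not separate the 2 gates. The 10 FDC markers summed to 68593, 44344 and 95718 CPM in the Cr2 gate and 64213, 55552 and 58779 CPM in the Madcam1 gate. The 4 marginal reticular markers, which share Cxcl13 with them, summed to 33881, 20550 and 54909 CPM and 33862, 25728 and 28984 CPM. Such sums follow abundant genes such as Clu (17478 CPM in the Cr2 gate, 18843 CPM in the Madcam1 gate) and say little about rarer markers. In the Madcam1 gate Cr2 was at 0 by definition. Fcer2a was at 0 there in 2-IC replicate 2 and 1-IC replicate 1, and Fcgr2b in 2-IC replicate 2. The 4 stromal markers Pdpn, Col1a1, Col1a2 and Col3a1 summed to 2472, 2876 and 672 CPM in the Cr2 gate. They summed to 2494, 3496 and 1782 CPM in the Madcam1 gate and 5728, 6114 and 4426 CPM in the Inmt gate. RNA of other cell types was also counted. Of the 4 Schwann cell markers reported, which are part of the list, Sox10 and Cdh19 were at 0 in every gate, S100b was at 0 through the filter, and Mbp stood at 9.59 to 15.6 CPM in the Cr2 gate and 0 to 15.5 CPM in the other gates. Macrophage and dendritic cell markers (3 genes) summed to 81.5 to 199 CPM in the Cr2 gate and 15.1 to 119 CPM in the other gates, with 356, 69.7 and 498 CPM in cells of no gate. B cell markers (6 genes, Cd79a and Cd79b at 0 through the filter) summed to 393 to 969 CPM against 186 to 1078 CPM, with 895, 265 and 1512 CPM in cells of no gate. T cell markers (3 genes, Cd3d and Trac at 0 through the filter) stood at 0 to 2.37 CPM, so only Cd3e could be counted. Pericyte markers (3 genes) summed to 682 to 871 CPM in the Cr2 gate and 377 to 1032 CPM in the other gates. Endothelial markers (6 genes, Lyve1, Cldn5 and Egfl7 at 0 through the filter) summed to 2.40 to 9.34 CPM against 0 to 22.6 CPM. The part of these RNAs in any result on the receptors was not tested.

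Gfra2 was detected in every gate and was highest in the Cr2 and Madcam1 gates. The gene lies on chr14:70890120-70979838 (GRCm38, plus strand), and no other annotated gene overlaps it. In the Cr2 gate its level was 364 CPM (exact 95% Poisson interval 325 to 407) in 2-IC replicate 1, 321 CPM (269 to 381) in 2-IC replicate 2 and 290 CPM (234 to 355) in 1-IC replicate 1, from 308, 134 and 93 UMIs. In the Madcam1 gate it was 435 CPM (343 to 543), 247 CPM (172 to 343) and 217 CPM (131 to 339) in the same order, from 77, 35 and 19 UMIs. The 2 gates overlapped, with 2-IC replicate 1 the highest library in both.

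Lower levels were found in the remaining stroma. Fmod cells, reticular cells that also carry the T cell zone chemokine Ccl21a, held 170, 147 and 108 CPM. Cells of no gate held 142, 94.6 and 110 CPM, and Tnfsf11 cells without Madcam1 held 99.4, 89.4 and 90.0 CPM. Inmt cells, the largest gate and one marked by a methyltransferase gene, held the least, at 83.5, 52.9 and 41.3 CPM. All intervals here cover counting error only, and UMIs of a gate from 1 library share a cell suspension.

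**Figure D1:**
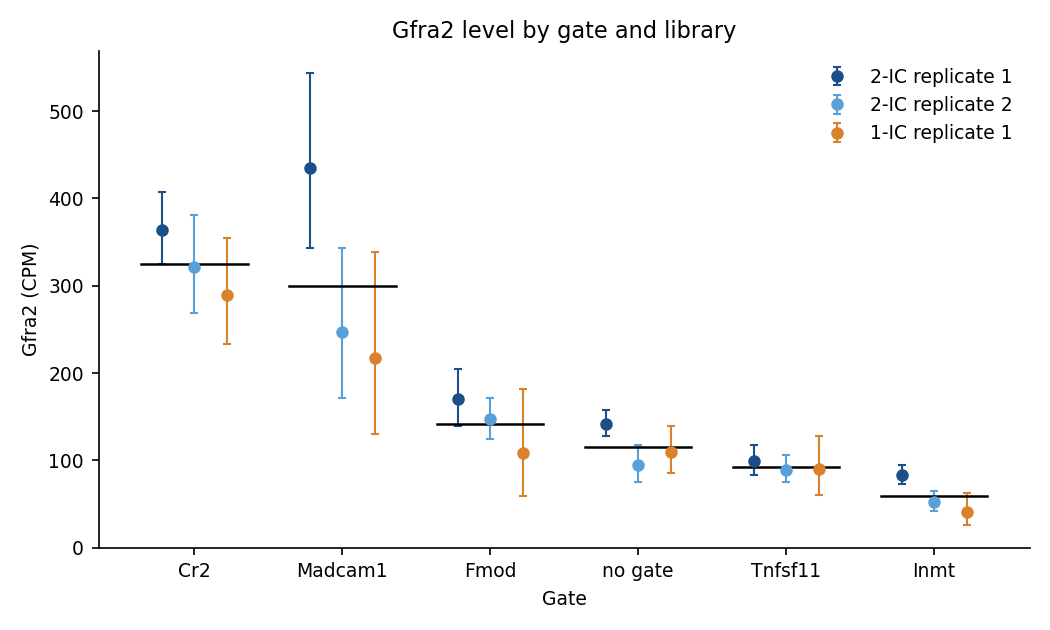
Gfra2 level in CPM (y axis) in each gate (x axis), with 1 point per library, exact 95% Poisson intervals as bars and the mean of the 3 libraries as a black line. The Cr2 and Madcam1 gates sit at 217 CPM or more in every library, and no library of another gate exceeds 170 CPM.

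By the mean of the 3 libraries the order was Cr2 (325 ± 37.5 CPM), Madcam1 (299 ± 118), Fmod (142 ± 31.3), no gate (116 ± 24.2), Tnfsf11 (92.9 ± 5.63) and Inmt (59.2 ± 21.8). Neighbours overlapped over libraries from Cr2 to Madcam1, from Fmod to no gate and from no gate to Tnfsf11. They did not overlap from Madcam1 to Fmod (lowest 217 against highest 170 CPM) and from Tnfsf11 to Inmt (89.4 against 83.5 CPM). The Cr2 gate held 25.5% of all 2097 Gfra2 UMIs of the retained cells with 10.3% of the cells, and the Madcam1 gate 6.25% with 1.96%.

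Within a library, the level in the Cr2 gate was 3.26 to 3.69 times that of the 4 other gates united, a log2 ratio of 1.79 ± 0.09 (SD, n = 3). Inmt cells, the gate lowest in Gfra2, made up 488 of 786, 115 of 264 and 82 of 149 cells of the united gates. Comparisons with the united gates depend on this mix. Against single gates the log2 ratio was 2.51 ± 0.35 over Inmt, 1.80 ± 0.10 over Tnfsf11, 1.51 ± 0.22 over cells of no gate and 1.22 ± 0.18 over Fmod, positive in 3 of 3 libraries each time. Against the Madcam1 gate it was 0.18 ± 0.38, from -0.25 to 0.42, positive in 2 of 3 libraries and smaller than its spread. Set among 11584 genes with at least 50 UMIs, Gfra2 ranked 125 (top 1.08%) by the lowest of its 3 differences in log2(CPM + 10) between the Cr2 gate and the united other gates. The rank describes the pattern for which the gene was chosen.

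The share of cells with a Gfra2 UMI was highest in the Madcam1 gate by its mean, and its order was not that of the levels. It was 55.2%, 77.1% and 64.0% of the cells in the Cr2 gate (2-IC replicate 1, 2-IC replicate 2, 1-IC replicate 1) and 87.5%, 100% and 69.2% in the Madcam1 gate. In the Fmod gate it was 49.4%, 79.2% and 40.0%, above the Cr2 gate in 2-IC replicate 2, the library with the deepest cells. Tnfsf11 cells had 38.2%, 62.9% and 33.3%, cells of no gate 29.2%, 37.0% and 29.1%, and Inmt cells 29.1%, 37.4% and 17.1%. B cell barcodes, which should lack the transcript, had a Gfra2 UMI in 1.62%, 2.27% and 0.629% of 185, 44 and 159 barcodes. These barcodes were chosen to have no UMI of Pdpn, Col1a1, Col1a2 or Col3a1, so stray stromal RNA in them is low by selection. Their median depth was 3274, 5842.5 and 3138 UMIs, against 5166, 10091 and 4836.5 in the Cr2 gate.

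Depth differed between gates and libraries, so each cell was also thinned to 2000 UMIs. The Cr2 gate then had a Gfra2 UMI in 44.6%, 32.4% and 42.9% of 121, 34 and 42 cells, with 33 shallower cells left out. The Madcam1 gate had one in 50%, 42.9% and 38.5% of 24, 7 and 13 cells, with none left out. The other gates ranged from 5.0% (Inmt, 1-IC) to 21.7% (Fmod, 2-IC replicate 1), and cells of no gate from 15.4% to 24.1%. Thinned, every library of the Cr2 and Madcam1 gates lay above every library of the other groups, which was not so before thinning, and 2-IC replicate 2 no longer had the highest share in the Cr2 gate. The thinned shares come from a single random draw, and those of the Madcam1 gate from few cells.

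**Figure D2:**
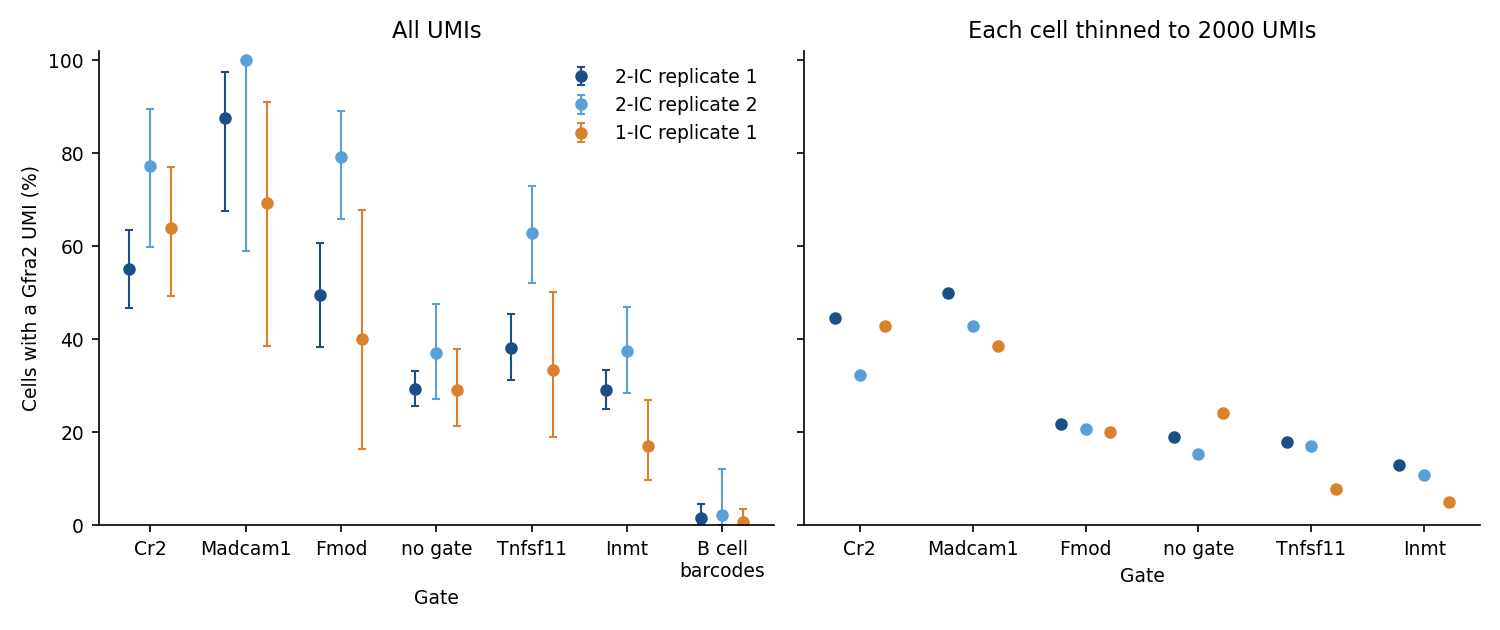
Share of cells with a Gfra2 UMI in percent (y axes) by gate (x axes), with 1 point per library, over all UMIs with exact 95% binomial intervals and B cell barcodes added (left) and thinned to 2000 UMIs per cell without intervals (right). B cell barcodes, chosen to have no UMI of Pdpn, Col1a1, Col1a2 or Col3a1, lie at 0.629% to 2.27%, below every gate.

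High counts in single cells were found inside and outside these gates: of 105 cells with 5 or more Gfra2 UMIs, 52 lay in the Cr2 and Madcam1 gates and 53 elsewhere. As a share of the gate, cells with 5 or more Gfra2 UMIs were 44 of 230 (19.1%) in the Cr2 gate, 8 of 44 (18.2%) in the Madcam1 gate and 18 of 151 (11.9%) in the Fmod gate. They were 3.76% of Tnfsf11 cells, 2.21% of cells of no gate and 0.730% of Inmt cells. The highest cell held 23 UMIs and lay in the Fmod gate.

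Cells just inside the limit of the Cr2 gate, with exactly 1 Cr2 UMI, had 176, 306.5 and 255 CPM of Gfra2 (81 cells), and those with 5 or more had 510, 292 and 267 CPM (100 cells). The higher level at more Cr2 UMIs rests on 2-IC replicate 1, since 2-IC replicate 2 had the reverse order and 1-IC nearly equal values. Cells with 2 Cr2 UMIs (25 in all) had 282 ± 275 CPM. Among cells without Cr2, the level was 142 ± 80.9 CPM with 1 Madcam1 UMI (39 cells, outside the gate), 181 ± 117 CPM with 2 UMIs (12 cells, just inside) and 321 ± 123 CPM with 3 or more (32 cells). These groups overlapped over libraries, and the cells with 1 or 2 Madcam1 UMIs are few.

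Inside the Cr2 gate, Gfra2 was counted in cells with and without the other markers. Cells with a UMI of Fcer2a or Fcgr2b, both receptors for antibody Fc parts on FDCs, had 455, 390 and 291 CPM (122 cells), and those without either had 258, 255 and 287 CPM (108 cells). The ranges did not overlap, but the gap in 1-IC replicate 1 was a few CPM. Cr2 cells that also had Madcam1 (104 cells, 350 ± 111 CPM) and those that did not (126 cells, 333 ± 64.2 CPM) overlapped. Cells with under 1% of their UMIs from the nuclear RNA Malat1 made up 63 of the 230 cells, and had 175 ± 41.3 CPM of Gfra2 against 353 ± 41.4 CPM in the rest. Without these 63 cells the log2 ratio of the Cr2 gate over the other gates was 1.91. The part of RNA quality in the level was not tested.

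The size of the contrast depended on the contaminant filter. Without it the Cr2 gate grew to 483, 148 and 125 cells, Gfra2 was at 179, 132 and 149 CPM, and the log2 ratio over the other gates was 0.74 ± 0.16. Of those cells, 63.6%, 72.3% and 56.8% carried a UMI of the B cell receptor genes Cd79a or Cd79b, and these had Gfra2 at 116, 89.4 and 45.9 CPM. The remaining 176, 41 and 54 cells stood at 324, 290 and 274 CPM. They include the 145, 35 and 50 retained cells of the gate. Those retained cells held 308, 134 and 93 of the 352, 136 and 93 Gfra2 UMIs. A level near that of the retained cells thus follows largely from the overlap. The Madcam1 gate, which holds no Cr2 UMI, was also lower without the filter, at 237, 150 and 194 CPM of Gfra2. It then lay above the Cr2 gate in each library, so the order of these gates by their means depends on the filter. B cells also express Cr2, and the part of B cell barcodes in the lower ratio was not tested.

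With 1 library of the 1-IC group, the conditions could be set side by side only. In the Cr2 gate, 2-IC replicate 1 was above 1-IC by 0.33 on the log2 scale (exact 95% interval -0.01 to 0.68) and 2-IC replicate 2 by 0.15 (-0.24 to 0.55). The 2-IC libraries differed from each other by 0.18 (-0.12 to 0.48). Each of these intervals includes 0 and covers counting error only, and 1 library of the 1-IC group allows no test of the conditions. In the Madcam1 gate the values were 1.00 (0.26 to 1.81) and 0.18 (-0.66 to 1.07), with 0.82 (0.22 to 1.44) between the 2-IC libraries. In the Inmt gate they were 1.02 (0.38 to 1.72) and 0.36 (-0.33 to 1.10), with 0.66 (0.30 to 1.03) between them. 2-IC replicate 1 was the highest library in all 6 groups of cells, and condition and library cannot be told apart.

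The genes whose pattern was most like that of Gfra2 were ranked by Pearson r of log2(CPM + 10) over 18 sums (6 groups of cells in 3 libraries). The sums share libraries, depth and cell suspensions, and the values are descriptive. The closest were the organic anion transporter gene Slco2b1 (r = 0.94) and Mfge8 (0.91), whose product bridges dying cells to phagocytes and marks FDCs. After them came Tmem123 (0.91), the TNF receptor family gene Relt (0.90), the sialyltransferase St6galnac2 (0.89), the ectoenzyme Bst1 (0.89), Colq (0.89), the adhesion molecule Vcam1 (0.88), the sortilin family receptor Sorcs2 (0.87) and clusterin (Clu, 0.87). Slco2b1 stood at 444 ± 31.8 CPM in the Cr2 gate, 405 ± 159 in the Madcam1 gate and 135 ± 27.9 in the Inmt gate, close to the Gfra2 profile. St6galnac2 and Colq had higher means in the Cr2 than in the Madcam1 gate (91.4 ± 27.3 against 43.9 ± 15.8 CPM, and 149 ± 16.5 against 88.0 ± 42.3 CPM), and Bst1 had the reverse order (450 ± 69.5 against 728 ± 50.9 CPM). Ret ranked 23 (r = 0.85). Of the gate genes, Madcam1 ranked 16 (0.86) and Cr2 661 (0.59), and Inmt had r = -0.60. These values are partly set by the gates, since every cell with a Cr2 UMI lies in the Cr2 gate and the other groups lack Cr2. The limits on Madcam1 and Inmt UMIs also shape the sums of those genes. The r and rank of gate genes therefore cannot show which of them Gfra2 follows more closely.

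**Figure D3:**
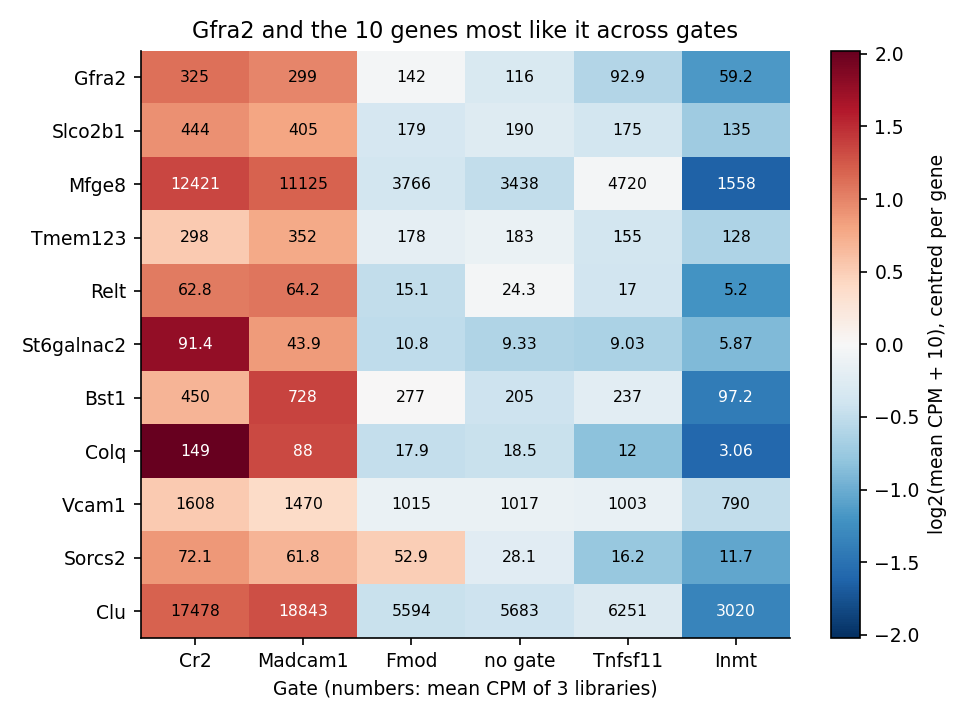
Heat map of Gfra2 and the 10 genes most like it (rows) over the groups of cells (columns), coloured by log2(mean CPM + 10) centred per gene, with the mean CPM of the 3 libraries printed in each cell. All rows are highest in the Cr2 or the Madcam1 gate, and Gfra2 runs from 325 CPM (Cr2) to 59.2 CPM (Inmt).

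Ret, the kinase through which GFRα receptors signal, was counted at low numbers in the gates that held most Gfra2. It lies on chr6:118151745-118197718 (minus strand), and 65, 21 and 14 UMIs were found in retained cells, in 86 of 2243 cells (3.83%). In the Cr2 gate its level was 22.5 CPM (13.5 to 35.1), 14.4 CPM (5.28 to 31.3) and 24.9 CPM (10.8 to 49.1), from 19, 6 and 8 UMIs. In the Madcam1 gate it was 39.5, 42.3 and 11.4 CPM, from 7, 6 and 1 UMIs. The intervals of the Cr2 gate overlap among the libraries, and the Madcam1 value of 1-IC rests on a single molecule.

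The other gates held lower levels of Ret. Cells of no gate had 7.20, 4.73 and 6.47 CPM, Fmod cells 3.09, 2.83 and 7.74 CPM, Tnfsf11 cells 9.87, 0.657 and 0 CPM, and Inmt cells 1.82, 0.595 and 0 CPM. The united other gates stood at 5.60, 2.50 and 1.85 CPM, below the Cr2 gate in 3 of 3 libraries, by 4.01 to 13.5 times within a library. On the log2 scale the ratio was 2.00 (exact 95% interval 1.08 to 2.90), 2.53 (0.81 to 4.09) and 3.75 (1.43 to 7.03). The widest ratio is that of 1-IC replicate 1, where the other gates held 2 Ret UMIs. A Ret UMI was present in 9.66%, 14.3% and 14.0% of Cr2 cells, and in 4.96%, 2.94% and 2.38% after thinning to 2000 UMIs. B cell barcodes had 1 Ret UMI in each library (0.541%, 2.27% and 0.629% of the barcodes), at lower median depth. The unthinned share of the Cr2 gate was above that of the B cell barcodes in each library, and 1 UMI per library limits the precision of the latter. The B cell barcodes were also chosen to lack UMIs of Pdpn, Col1a1, Col1a2 and Col3a1, so they may understate stray stromal RNA. The part of Schwann cell RNA in the Ret level was not tested.

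**Figure D4:**
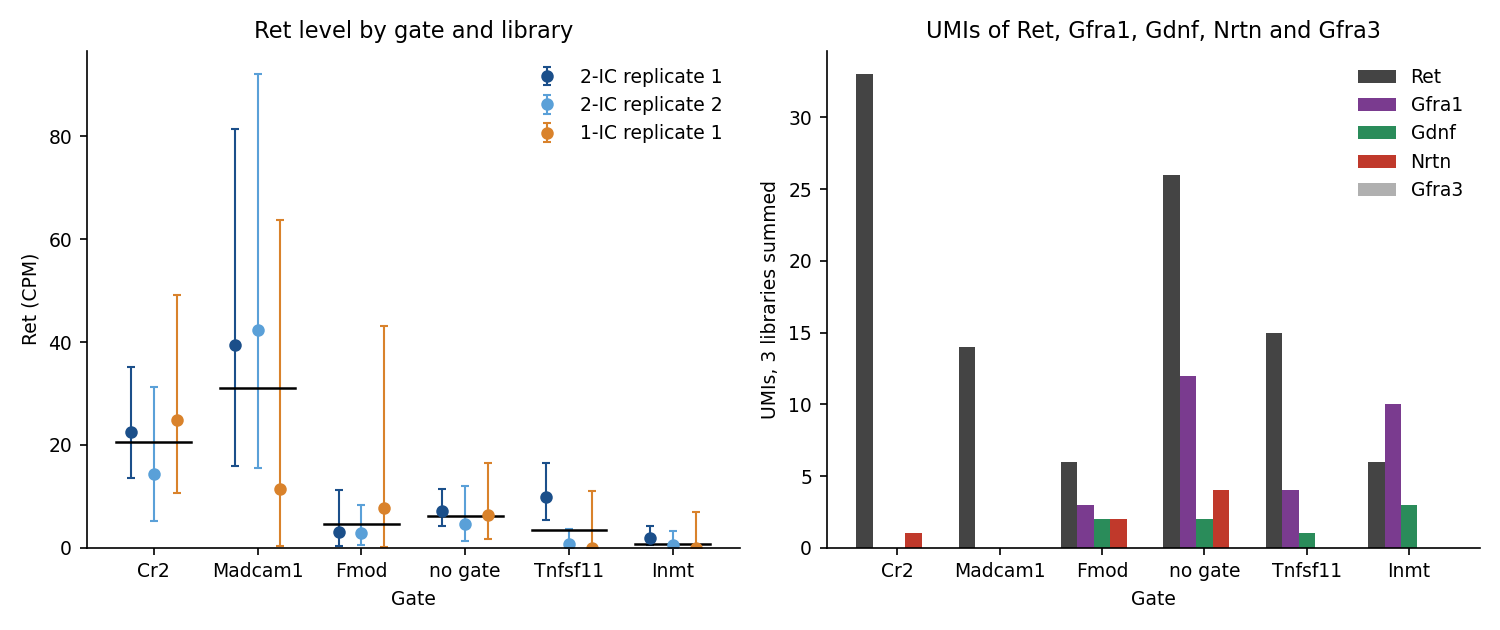
Left, Ret level in CPM (y axis) by gate (x axis), 1 point per library with exact 95% Poisson intervals and the mean of 3 libraries as a line; right, UMIs of Ret, Gfra1, Gdnf, Nrtn and Gfra3 (y axis) summed over the 3 libraries by gate. Ret has 33 UMIs in the Cr2 gate, while Gfra1 and Gdnf have 0 there and in the Madcam1 gate.

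Ret and Gfra2 were often counted in the same cells. In the Cr2 and Madcam1 gates together, 32 of 37 cells with a Ret UMI also had a Gfra2 UMI (86.5%), against 176 of all 274 cells (64.2%). By library the counts were 18 of 21, 8 of 8 and 6 of 8 cells with Ret, beside 101 of 169, 34 of 42 and 41 of 63 of all cells. The last 2 libraries thus rest on 8 cells with Ret each. Over all retained cells 64 of 86 Ret cells had Gfra2 (74.4% against 37.9% of all cells), but in the Inmt gate it was 0 of 6. Of the 86 Ret cells, 37 lay in the Cr2 and Madcam1 gates, where the Gfra2 level was highest, so the share over all retained cells also depends on the mix of gates. Cells with Ret were deeper, at a median of 9021 UMIs against 6078.5 in the Cr2 and Madcam1 gates. The parts of depth and of the mix of gates in the co-detection were not tested.

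Gfra1, the GDNF receptor, was counted at very low numbers in the retained cells and was not counted where Gfra2 was highest. It lies on chr19:58235604-58455909 (minus strand), where the annotation has Gm16277 on the opposite strand. The retained cells held 4, 22 and 3 UMIs, 29 in all, in 16 cells. None lay in the Cr2 or Madcam1 gates, and the limit that a count of 0 allows (3 counts) is 3.55, 7.20 and 9.34 CPM in the Cr2 gate and 16.9, 21.1 and 34.3 CPM in the Madcam1 gate. The counts fell on cells of no gate (1, 8 and 3 UMIs), Inmt cells (2, 8 and 0), Tnfsf11 cells (1, 3 and 0) and Fmod cells (0, 3 and 0). Most came from 2-IC replicate 2, the counts are few, and a difference between gates was not tested. Gfra3, the artemin receptor, had no UMI in any retained cell, which allows at most 0.187 CPM over the 3 libraries, and 1 UMI among all 5486 barcodes.

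The ligands were at the limit of detection. Neurturin (Nrtn, chr17:56751325-56757530, minus strand), the preferred ligand of GFRα2, had 1, 2 and 4 UMIs in the retained cells, each in a different cell. A single Nrtn UMI lay in the Cr2 gate, in 1-IC, and the others in Fmod cells (2) and cells of no gate (4). Gdnf (chr15:7810846-7837575, plus strand) had 5, 3 and 0 UMIs, none of them in the Cr2 or Madcam1 gates. Pooled over libraries these counts equal 0.437 CPM for Nrtn and 0.499 CPM for Gdnf. Artn and Pspn, the ligands of GFRα3 and GFRα4, had 2 UMIs each. Sources of ligand outside the sorted cells, such as nerves or other cell types, were not analysed here.

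The wider pathway was read from a list of 35 further genes, tested across all genes with edgeR's quasi-likelihood test and library as a block (adjusted p by Benjamini-Hochberg over all genes tested). Of the 6 genes above, Gfra2 and Ret passed the count filter of this fit and are given no test, and 4 did not pass it. Between the Cr2 gate and the united other gates, 20.4% of 8635 genes passed an adjusted p of 0.05, 10.9% higher and 9.51% lower in the Cr2 gate. Of the 35 pathway genes 23 could be tested and 5 passed (21.7%, near the background): 2 higher and 3 lower. The median log2 fold change of the 23 was -0.32, beside -0.01 over all genes. The remaining 12 were too low to test, among them the GDF15 receptor Gfral and the adaptor Dok6 with no UMI.

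Among receptors and co-receptors, Ncam1 rose and Gas1 fell in the Cr2 gate. Ncam1, an adhesion molecule that binds GDNF together with GFRα1 without RET, was at 88.7, 168 and 65.4 CPM in the Cr2 gate and 45.4, 48.3 and 36.0 CPM in the other gates. All 3 Cr2 values lay above the others, with a log2 fold change of 1.29 ± 0.21 (SE) and an adjusted p of 0.000745 by edgeR. The call held in 12 of 14 alternative settings (adjusted p 6.81e-07 to 0.178) and was lost without the contaminant filter and with thinned cells. Schwann cells also express Ncam1, and the part of their RNA in the Cr2 gate value was not tested.

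Gas1, a distant relative of the GFRα family that can also bind RET and is best known as a hedgehog co-receptor, was at 104, 69.6 and 6.23 CPM in the Cr2 gate and 187, 173 and 135 CPM in the other gates. Every Cr2 value was below the others, and that of 1-IC replicate 1 was under the 9.34 CPM that a count of 0 allows. Gas1 fell by 1.37 ± 0.30 on the log2 scale (edgeR adjusted p = 0.00567). The call was lost with DESeq2 (adjusted p = 0.16) and without the library block, over a range of 1.76e-11 to 0.16 in 14 settings. Gas1 was also low in the Madcam1 gate, at 54.7 ± 26.5 CPM, and highest in Inmt cells, at 192 ± 29.6 CPM, the gate lowest in Gfra2. Gfra4 (log2 fold change 0.52 ± 0.31, edgeR adjusted p = 0.305) and the heparan sulphate proteoglycan Sdc3 (0.92 ± 0.34, 0.0793) did not pass. Gfra4 overlaps the microRNA gene Mir6973b on its own strand, so its UMIs are uncertain.

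The distant family ligand Gdf15, a stress-induced hormone, was the single ligand that could be tested. It was at 22.5, 9.59 and 21.8 CPM in the Cr2 gate and 48.4, 30.0 and 40.6 CPM in the other gates. The groups did not overlap, and Gdf15 fell by 1.15 ± 0.27 on the log2 scale (edgeR adjusted p = 0.00844). Without 2-IC replicate 1 the adjusted p was 0.102, and the call was lost in 3 of 14 settings (8.43e-05 to 0.102).

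None of the 11 adaptors and kinases at RET that could be tested passed in the main setting. Their log2 fold changes ran from -1.34 (Fyn, a Src family kinase, edgeR adjusted p = 0.0950) to 0.41 (Grb2, which links receptors to Ras, edgeR adjusted p = 0.141). The binding partner Lrig1, a membrane protein that limits GFRα1 and RET signalling, had -0.41 and an adjusted p of 0.373. Shc1, Frs2, Src and Ptpn11, the core of the RET adaptor set, had -0.32, -0.15, 0.23 and -0.24. A missed threshold does not show that these genes were at equal levels.

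Feedback genes of the ERK pathway went in both directions. Spry2, an inhibitor of receptor tyrosine kinase signalling, was at 41.4, 26.4 and 31.1 CPM in the Cr2 gate and 78.7, 50.4 and 73.9 CPM in the other gates. It fell by 0.99 ± 0.20 on the log2 scale (edgeR adjusted p = 0.00384), and the call held in 12 of 14 settings (0.000107 to 0.0805). Its relative Spry4 was at 13.01, 31.2 and 15.6 CPM against 7.21, 12.7 and 8.31 CPM, and rose by 1.07 ± 0.35 (edgeR adjusted p = 0.0480). The Spry4 call held in only 3 of 13 settings (0.0224 to 0.891), and leaving out any library ended it. In the Madcam1 gate Spry2 was at 42.0 ± 23.5 CPM and Spry4 at 17.4 ± 17.6 CPM, beside 33.0 ± 7.68 and 19.9 ± 9.83 CPM in the Cr2 gate. Against that gate alone Spry2 did not pass (edgeR adjusted p = 0.970) and Spry4 could not be tested. Spry1, Dusp6, Spred1 and Spred2 did not pass, with log2 fold changes of -1.57, -0.51, -0.46 and 0.11. In the alternative settings Spry1 passed in 4 of 12, Spred1 in 2 of 14, Spred2 in 1 of 13 and Dusp6 in 0 of 13.

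**Figure D5:**
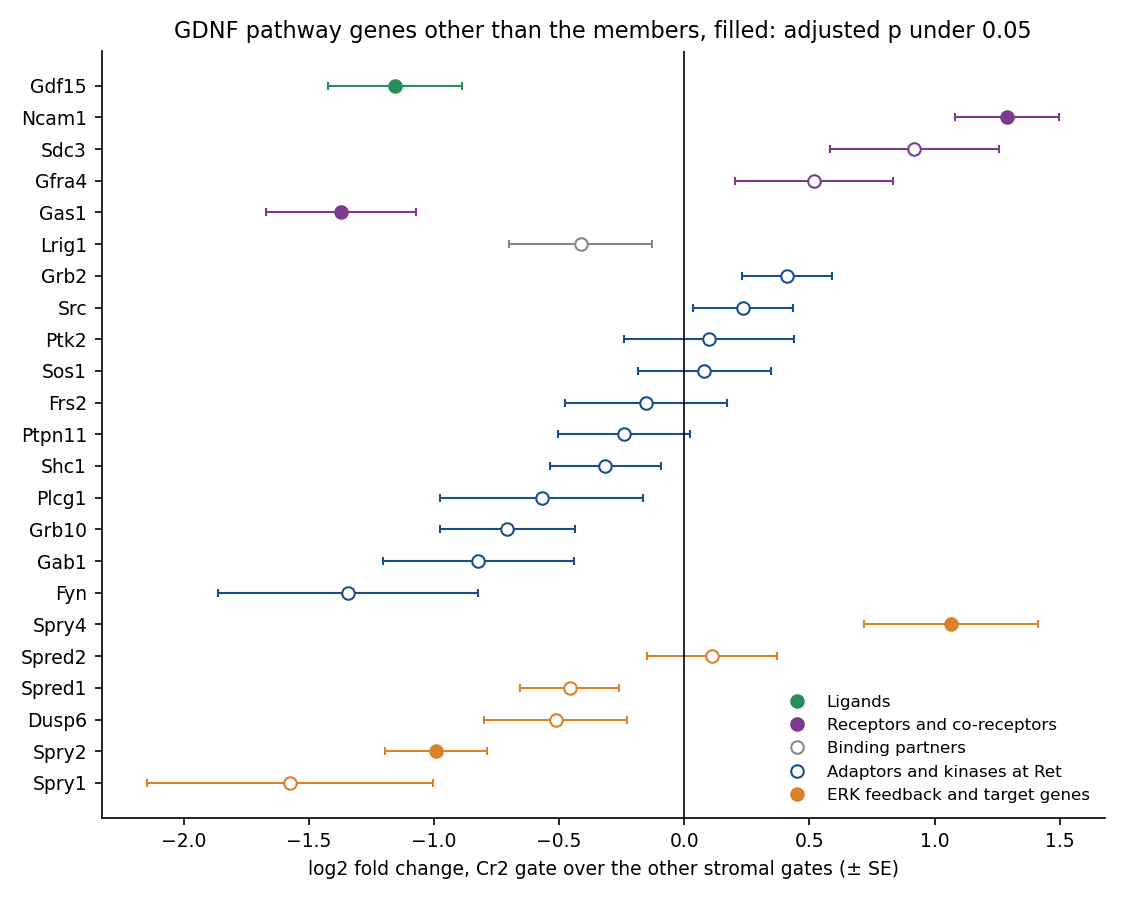
Log2 fold change of the Cr2 gate over the united other gates (x axis) with its SE for the 23 further pathway genes tested (y axis), filled where the edgeR adjusted p is under 0.05. The 5 filled points are Ncam1 (1.29) and Spry4 (1.07) to the right and Gas1 (-1.37), Gdf15 (-1.15) and Spry2 (-0.99) to the left.

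Against the Madcam1 gate alone, whose Gfra2 level was similar, 4.77% of 3966 genes passed, 3.15% higher and 1.61% lower in the Cr2 gate. Of the 35 pathway genes 8 could be tested and 1 passed, Ncam1, with a median log2 fold change of -0.18 over the 8, beside 0.00 over all genes. Ncam1 was at 282, 240 and 206 CPM in the Madcam1 gate, above each Cr2 value, and fell in the Cr2 gate by 1.14 ± 0.28 on the log2 scale (edgeR adjusted p = 0.0163). This call was lost in 5 of 13 settings (0.00261 to 0.395), the highest without 2-IC replicate 1 and another without 1-IC replicate 1 (0.0563). The ERK phosphatase gene Dusp6 had -1.29 ± 0.40 and did not pass (edgeR adjusted p = 0.0786). Ncam1 thus stood at 242 ± 38.3 CPM in the Madcam1 gate, 107 ± 53.7 CPM in the Cr2 gate and 43.3 ± 6.45 CPM in the united other gates, which include the Madcam1 cells.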

How the data were processed

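The authors aligned 10x Genomics 3' reads and counted UMIs with Cell Ranger (5.0.0 in the file header) on GRCm38 (Ensembl annotation), and deposited counts per gene and barcode, not normalized, for barcodes kept as cells. Three-prime counts do not scale with transcript length, but capture differs between genes, so levels were compared within a gene. Libraries were grouped by their titles, because the short descriptions of the 2-IC libraries conflict. Total UMIs were 20607903, 12788101 and 3766526.

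Counts were summed per library and gate and given as CPM with exact 95% Poisson intervals, shares with exact binomial (Clopper-Pearson) intervals (Python 3.11.15, scipy 1.17.1). Tests used edgeR 4.0.16 in R 4.3.3 (TMM, filterByExpr, quasi-likelihood, two-sided) with library as a block, since the sums of a library come from 1 suspension. SEs were derived from the F statistics, and scripts were tested on simulated data. With 3 libraries of pooled mice and library as a block, p-values rest on the spread of the gate difference over libraries, moderated over all genes. A p-value thus does not measure the gene's own spread alone, and a gene with uneven differences over libraries can still pass. The spread over libraries may be technical. Doublets were kept. Scrublet (scanpy 1.11.5) marked 8, 18 and 16 cells and their removal was an alternative, as were DESeq2 1.42.0, RLE scaling, thinning and other gates. B cell barcodes passed the gene and mitochondrial limits and had 3 or more Cd79a and Cd79b UMIs and none of Pdpn, Col1a1, Col1a2 and Col3a1. Positions come from GENCODE M21. The text names the 6 genes, the pathway list, the 10 genes most like Gfra2, gate genes, markers and Malat1. Some Schwann cell markers are not reported here. Members and lists were chosen with earlier results of these data known.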

Additional observations from a re-analysis of the deposited data

Results flagged for a closer look

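The barcodes left out by the filters (3243 of 5486) enter no comparison, and they too held transcripts of the family, above the limit of 3 counts. Gfra2 had 1503 UMIs there, in 611 barcodes (18.8%), of which 1389 lay in barcodes with a contaminant gene and 114 in barcodes past the gene or mitochondrial limit. Ret had 91 UMIs in 68 barcodes, Gfra1 31 UMIs in 21, Gdnf 7 UMIs in 4 and Nrtn 6 UMIs in 6. The single Gfra3 UMI of the series also lay there and stays below that limit.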

How the results depend on the processing

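The number of genes tested changed with the setting, so each count is given with it. The 1761 of 8635 genes that differed between the Cr2 gate and the other gates became 4274 of 11889 without the contaminant filter and 680 of 4007 with thinned cells. They became 1048 of 8635 with DESeq2 and 807 of 8635 without the replicate block (548 of these higher). Leaving out 1 library gave 1090 of 8024 (without 2-IC replicate 1) to 1880 of 8686. Against the Madcam1 gate, 189 of 3966 became 825 of 7321 without the contaminant filter, 307 of 4790 with other gates of 1 or more UMIs and 53 of 827 with thinned cells. They became 86 of 3966 with DESeq2 and 55 of 3966 without the replicate block. With a library left out they were 103 of 3899 (without 2-IC replicate 1), 117 of 4045 (without 2-IC replicate 2) and up to 216 of 4877. The 5 pathway genes became 14 (no contaminant filter), 2 (thinned, of 9 tested), 2 (DESeq2) and 1 (no replicate block), and 3 (without 2-IC replicate 1) to 8 (without 2-IC replicate 2). These counts go with the counts over all genes above, and the 14 go with 4274 of 11889 genes, so they are not read as results about the pathway. The Gfra2 log2 ratio of 1.79 became 0.74 without the contaminant filter, 1.92 with 2 or more Cr2 UMIs and 1.91 without cells low in Malat1, and ran from 1.74 to 1.83 with a library left out. The share of Cr2 cells with Gfra2 (65.4%) became 36.9% without the contaminant filter and 39.9% with thinned cells, and 59.6% to 70.6% with a library left out. That of Madcam1 cells (85.6%) became 63.2% with gates of 1 or more UMIs and 43.8% thinned, and 78.4% to 93.8%. Without the contaminant filter 7 pathway genes changed sign against the other gates, none called in the main setting: Gfra4 (-0.19), Sdc3 (-0.04), Sos1 (-0.44), Src (-0.37), Fyn (0.23), Ptk2 (-0.41) and Spred2 (0.11 to -0.47, the 1 that passed there). Over all alternatives 9 did, and 3 against the Madcam1 gate. Of the 25 pathway results of both comparisons that were not called in the main setting, 13 were called in at least 1 alternative. The same share over all genes is not given here, so this count has no background. Thinning leaves fewer UMIs and leaving out a library fewer samples; other causes were not tested. The alternatives without shared barcodes and without cells low in Malat1 were chosen after seeing the data. For the comparisons tested, gates defined each by its own gene among cells without Cr2 give the same united sum and the same Madcam1 sum by construction.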
